A study of Homo sapiens with 2 samples.

Results

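The 48 genes described here are MYC and 47 factors that build ribosomes, taken by name and grouped by the step of ribosome synthesis at which their products act. On the Affymetrix Human Genome U133 Plus 2.0 array, 42 of the 48 had at least 1 probe set annotated to them alone, out of 19775 genes with such a probe set, and these 42 had 86 probe sets. Of the other 6, NOP56, BOP1 and PPAN shared their probe sets with other annotated genes, and DDX18, GNL3 and EBNA1BP2 had no probe set named for them in the annotation used here, so no values are given for these. The samples were MEG-01 cells, an established line of megakaryoblasts from chronic myeloid leukemia (CML). They were transduced with a lentivirus that carried GAS2DN, a truncated, dominant-negative form of growth arrest specific 2 (GAS2), together with the fluorescent marker Venus, or with the control lentivirus that carried Venus (labelled Venus here), and transduced cells of both kinds were sorted by fluorescence. The transgene was driven by the spleen focus forming virus promoter, and RNA of 3 independent extracts per condition was pooled in equal amounts and hybridised to 1 array. There was therefore no replicate of a condition and no test, and each log2 ratio below is the log2 signal in GAS2DN cells minus that in Venus cells.

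Ribosome synthesis starts in the nucleolus, where RNA polymerase I transcribes the ribosomal DNA into a long precursor. Small nucleolar ribonucleoproteins of the box C/D and H/ACA kinds methylate and pseudouridylate this precursor, and separate sets of factors cut and fold it into the small and the large ribosomal subunit. MYC, a transcription factor that binds DNA with its partner MAX at E-box sequences, is known to raise the transcription of many of these genes in growing cells and is an oncoprotein in leukemia. The comparison asked whether the signals of MYC and of this machinery differed in cells that expressed GAS2DN, which the study used to block the function of GAS2.

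On the scale of the deposited values, a signal is in arbitrary units after each array was scaled to a common trimmed mean, and signals of different probe sets cannot be set against each other as amounts of RNA. The median signal was 69.1 on the GAS2DN array and 55.6 on the Venus array. A probe set was used for counts, and called eligible, when the brighter of its 2 signals reached the median of its own array, which held for 79 of the 86. As main probe set the brightest one of each gene was taken, leaving out probe sets ending in _x_at, whose probes also match other transcripts, where the gene had another. GAS2 was read by 1 probe set, which was below the array median in both conditions with signals of 34.7 in GAS2DN cells and 24.3 in Venus cells, and where it lies relative to the truncation is not given in the sources used here. Of 11 megakaryocyte markers with a probe set, 8 had an eligible main probe set, while PF4, PPBP and VWF did not reach the median. Of the 8, 6 were higher in GAS2DN cells, among them ITGA2B, the platelet integrin alpha chain, with 9238 in GAS2DN cells and 7149 in Venus cells. The other 2 were lower, FLI1 with 6806 in GAS2DN cells and 10408 in Venus cells, and GATA1 with 1516 and 1617. Of 10 markers of fibroblasts and HEK293T cells, 3 had an eligible main probe set. COL1A2 was over 2-fold higher with 111 in GAS2DN cells and 41.0 in Venus cells, the Venus signal below the array median. THY1 had 1539 in GAS2DN cells and 1005 in Venus cells, and FN1 had 62.8 and 66.8, the GAS2DN signal below the array median.

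For every one of the 42 genes the main probe set was above the median on both arrays, and all of them were bright. With all probe sets ranked by their mean log2 signal and divided into 10 bins of equal size, 32 main probe sets lay in bin 10, the brightest, and the other 10 in bin 9. Their log2 ratios ran between -0.77 and 0.62, with a median of -0.01, and 18 of the 42 (42.9%) were above 0. Over all 13086 genes with an eligible main probe set the median was 0.06 and 56.2% were above 0. Over the 6513 genes whose main probe set lay in these 2 bins the median was 0.02 and 53.4% were above 0. A main probe set within 1.5-fold of equal signals was found in 40 of the 42 genes (95.2%), against 94.8% of the genes in the same bins. No main probe set of the 42 was over 2-fold higher, against 7.91% of all genes, and none was over 2-fold lower, against 4.45%. Those shares include dim probe sets, and of the 6513 genes in bins 9 and 10 only 5 were over 2-fold higher and 56 over 2-fold lower. The share of genes above 0 moved with the scaling of the arrays. Of the 42 genes, 19 were above 0 after loess, 20 after quantile normalization and 12 after the median of all log2 ratios, 0.12, was set to 0. Of the 6513 genes in bins 9 and 10, 3443, 3567 and 2126 were above 0 under the same scalings, in that order. The 6 genes that changed sign under the last of these were POLR1C, FBL, NOB1, HEATR1, UTP6 and UTP18. FBL, NOP2 and UBTF changed sign after loess and, with NAT10, after quantile normalization, and all of these were within 0.06 of 0 before.

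**Figure D1:**
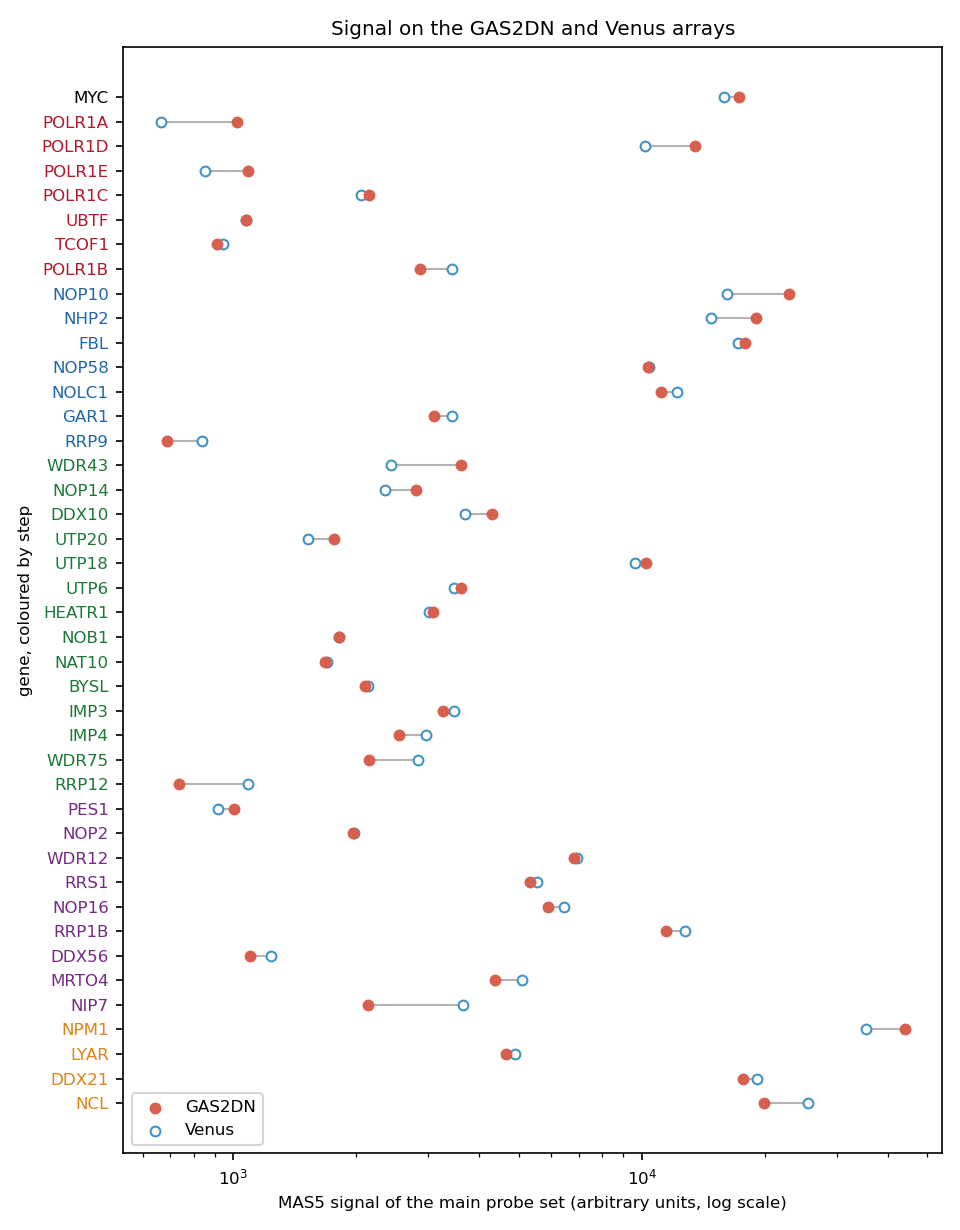
MAS5 signal of the main probe set of each of the 42 genes on the GAS2DN array (filled) and the Venus array (open), on a log axis and joined by a line, with gene names coloured by step (MYC, RNA polymerase I, box C/D and H/ACA particles, small subunit, large subunit, several steps). The pairs lie close together, with the widest gaps in NIP7, where GAS2DN is to the left at 2132 against 3639, and in POLR1A and WDR43, where GAS2DN is to the right.

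How far a ratio could be read depended on brightness. In bin 10 the log2 ratio of different probe sets of 1 gene varied with an SD of 0.25, in bin 9 with 0.34, and in bin 4, where mean signals were 18.7 to 32.3, with 1.94. Within its own bin, the main probe set of 38 of the 42 genes lay inside the central 95% of all log2 ratios. The 3 above that range were POLR1A, WDR43 and NOP10, and NIP7 was the only one below it.

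MYC itself was read by 1 probe set, 202431_s_at, with a signal of 17273 in GAS2DN cells and 15845 in Venus cells, a log2 ratio of 0.12. The log2 ratio was 0.04 after loess and after quantile normalization, and 0.003 with the median of all log2 ratios set to 0. The distance from 0 was below the spread of 0.25 between probe sets of that brightness. Of its network, 13 genes were measured, 8 with a log2 ratio above 0 and none over 2-fold, and their median was 0.06, or -0.06 with the median of all log2 ratios set to 0. MAX had 7700 in GAS2DN cells and 6787 in Venus cells in its main probe set, a log2 ratio of 0.18, against 0.54, 0.46, 0.52 and -0.24 in its other 4 probe sets. The antagonist MXD1, which competes with MYC for MAX, had 381 in GAS2DN cells and 231 in Venus cells, a log2 ratio of 0.72, but -0.09 in its next probe set. The repressor MNT, another MAX partner, was lower in both of its probe sets, with 817 against 1411 and 62.6 against 89.6 in GAS2DN against Venus cells, log2 ratios of -0.79 and -0.52, and the GAS2DN signal of 62.6 was below the array median.

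The E-box that MYC and MAX prefer, CACGTG, reads the same on both strands and was counted in RefSeq promoters (GRCh38.p14), from 250 bases before to 50 bases after the start of transcription. Promoters were found for 38 of the 48 genes, and 18 of these (47.4%) held the motif, against 2396 of 27305 genes in all (8.77%) and 12.3% of the measured genes with a promoter. It was found in 4 of 6 promoters of the small nucleolar particles, 7 of 13 of the small-subunit factors, 5 of 10 of the large-subunit factors and 0 of 5 of the RNA polymerase I genes. The 7 stretches here run from 60 bases before to 15 bases after the start of transcription. They were chosen by the log2 ratios described below and are examples only. With the motif, in capitals, are those of NOP10 and WDR43 (among the highest), FBL (near 0) and RRP9 (the lowest with it, at -0.28). Without it are those of NIP7 (the lowest, at -0.77), POLR1A (the highest) and NCL. Because they were picked by their values, the 7 stretches cannot show how the motif relates to the log2 ratio.
NOP10 (chr15:34343122-34343196, minus strand): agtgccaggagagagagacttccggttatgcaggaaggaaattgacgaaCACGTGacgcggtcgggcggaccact
WDR43 (chr2:28894607-28894681, plus strand): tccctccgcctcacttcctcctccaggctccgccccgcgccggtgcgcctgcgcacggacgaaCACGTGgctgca
FBL (chr19:39846365-39846439, minus strand): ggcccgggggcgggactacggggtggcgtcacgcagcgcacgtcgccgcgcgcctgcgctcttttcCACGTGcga
RRP9 (chr3:51941890-51941964, minus strand): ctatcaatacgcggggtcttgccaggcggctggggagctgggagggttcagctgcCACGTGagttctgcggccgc
NIP7 (chr16:69339712-69339786, plus strand): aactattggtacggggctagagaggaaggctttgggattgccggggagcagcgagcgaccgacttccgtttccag
POLR1A (chr2:86105872-86105946, minus strand): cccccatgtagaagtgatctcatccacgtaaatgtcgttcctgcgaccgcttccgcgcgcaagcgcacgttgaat
NCL (chr2:231464470-231464544, minus strand): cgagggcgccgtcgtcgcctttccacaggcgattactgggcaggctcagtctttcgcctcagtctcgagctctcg

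With the start of transcription as base 1 and the base before it as -1, the motif began at -11 in NOP10, at 4 in WDR43, at 7 in FBL and at -5 in RRP9, and NOP10 had a second copy at -170, outside the stretch shown. The 16 measured genes with the motif had a median log2 ratio of -0.01 and 7 were above 0, and the 18 without it had a median of 0.00 and 9 were above 0. Genes with and without the motif thus covered overlapping ranges, between -0.28 and 0.56 with it and between -0.77 and 0.62 without it.

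In the group for RNA polymerase I transcription, 4 of 7 main probe sets were above 0 and the median was 0.07, or -0.06 with the median of all log2 ratios set to 0. POLR1A, the largest subunit of the enzyme, had 1023 in GAS2DN cells and 663 in Venus cells in its main probe set, a log2 ratio of 0.62 and the highest of the 42 genes. Its other probe sets were lower in GAS2DN cells, with 312 against 386 and 269 against 315 in Venus cells, log2 ratios of -0.31 and -0.23. The direction for POLR1A thus differed between its probe sets. POLR1B, the second-largest subunit, was lower in all 4 probe sets. Its signals were 2857, 892, 481 and 495 in GAS2DN cells, against 3427, 1012, 709 and 588 in Venus cells, which gave log2 ratios of -0.26, -0.18, -0.56 and -0.25.

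The subunits POLR1C and POLR1D are shared with RNA polymerase III. POLR1C had 2144 in GAS2DN cells and 2048 in Venus cells, a log2 ratio of 0.07, while the other probe set had 1541 in GAS2DN cells and 1764 in Venus cells, a log2 ratio of -0.20. POLR1D had 13508 in GAS2DN cells and 10189 in Venus cells, a log2 ratio of 0.41, while the dimmer ones had 2850 against 3099 and 2098 against 1980 in GAS2DN against Venus cells, log2 ratios of -0.12 and 0.08. Neither gene had the same sign in all of its probe sets. POLR1E, a subunit found only in RNA polymerase I, had 1083 in GAS2DN cells and 850 in Venus cells, a log2 ratio of 0.35, and 210 in GAS2DN cells and 187 in Venus cells in the next probe set, a log2 ratio of 0.17. Its dimmest probe set, 231041_at, was over 2-fold lower with 55.8 in GAS2DN cells and 140 in Venus cells, a log2 ratio of -1.33, and this GAS2DN signal was below the array median. UBTF, which binds the promoter of the ribosomal genes, had 1076 on both arrays, a log2 ratio of 0.00, and -0.13, -0.28 and -0.07 in its other eligible probe sets. TCOF1, a nucleolar protein mutated in Treacher Collins syndrome, had 910 in GAS2DN cells and 943 in Venus cells, a log2 ratio of -0.05, and 0.05 in the next one. Its dimmest probe set had 58.3 in GAS2DN cells and 7.43 in Venus cells, both below the array medians, a log2 ratio of 2.97.

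The rest of this pathway step, 14 genes listed apart from the 42, had a median of -0.14 with 5 above 0 and none over 2-fold. The list includes subunits shared with other RNA polymerases. Of these, POLR2H, POLR2K and POLR2L had log2 ratios of 0.22, 0.04 and 0.23, and POLR2E and POLR2F had -0.09 and -0.27. The lowest was the subunit POLR1G with 815 in GAS2DN cells and 1247 in Venus cells, a log2 ratio of -0.61. RRN3, the initiation factor that links the enzyme to its promoter, had 3585 in GAS2DN cells and 4456 in Venus cells, a log2 ratio of -0.31. The highest was POLR1H with 4159 in GAS2DN cells and 3438 in Venus cells in its main probe set, a log2 ratio of 0.27. POLR1G, RRN3 and POLR1H were picked after their values were seen.

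Box C/D and H/ACA particles were represented by 7 genes, of which 3 were above 0, with a median of -0.01. The 2 highest were small core proteins of the H/ACA particle, which guides pseudouridylation and holds telomerase RNA. NOP10 had 22880 in GAS2DN cells and 16189 in Venus cells, a log2 ratio of 0.50. NHP2 had 18990 in GAS2DN cells and 14770 in Venus cells, a log2 ratio of 0.36. The third H/ACA protein with a value, GAR1, was on the other side with 3097 in GAS2DN cells and 3427 in Venus cells, a log2 ratio of -0.15. These 3 genes had 1 probe set each, so the difference among them has no second reading. Loess, which rescales the same 2 arrays and so is no second reading either, gave 0.40, 0.27 and -0.14 for NOP10, NHP2 and GAR1.

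Of the box C/D proteins, FBL and NOP58 were close to equal and RRP9 was lower. FBL, the methyltransferase fibrillarin, had 17912 in GAS2DN cells and 17160 in Venus cells, a log2 ratio of 0.06, or -0.03 after loess. NOP58, a core scaffold of the particle, had 10371 in GAS2DN cells and 10429 in Venus cells, a log2 ratio of -0.01. RRP9, which binds the U3 small nucleolar RNA, had 687 in GAS2DN cells and 836 in Venus cells, a log2 ratio of -0.28. NOLC1, a chaperone of both kinds of particle, had 11144 in GAS2DN cells and 12195 in Venus cells, a log2 ratio of -0.13. In its dimmer probe sets the signals were 1886 against 2159 and 554 against 440 in GAS2DN against Venus cells, log2 ratios of -0.20 and 0.33, so the probe sets of NOLC1 lay on both sides of 0. Of 11 other genes of particle assembly 4 were above 0, with a median of -0.07. NAF1, an assembly factor of H/ACA particles, was over 2-fold lower with 2805 in GAS2DN cells and 5778 in Venus cells, a log2 ratio of -1.04, in its 1 probe set, which ends in _x_at.

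Small-subunit factors were the largest set with 14 genes, of which 8 were above 0, and their median was 0.02, or -0.10 with the median of all log2 ratios set to 0. WDR43, HEATR1 and WDR75 belong to the part of the small-subunit processome that also acts in transcription of the ribosomal genes. WDR43 had 3604 in GAS2DN cells and 2437 in Venus cells, a log2 ratio of 0.56. WDR75 had 2148 in GAS2DN cells and 2824 in Venus cells, a log2 ratio of -0.39. HEATR1 lay between them with 3082 in GAS2DN cells and 3013 in Venus cells, a log2 ratio of 0.03, and the next brightest probe sets had 2526 against 2786 and 1464 against 1231 in GAS2DN against Venus cells, log2 ratios of -0.14 and 0.25. These 3 proteins of 1 complex therefore showed no common direction. A dim probe set of HEATR1, 1556348_at, was over 2-fold lower with 35.7 in GAS2DN cells and 74.5 in Venus cells, a log2 ratio of -1.06, and the dimmest had 65.4 in GAS2DN cells and 4.58 in Venus cells, both below the array medians, a log2 ratio of 3.84.

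Other processome proteins lay between -0.22 and 0.25 in their main probe sets. UTP18 had 10256 in GAS2DN cells and 9602 in Venus cells, a log2 ratio of 0.10, while its probe set 222038_s_at had 27.6 in GAS2DN cells and 61.0 in Venus cells, a log2 ratio of -1.14. UTP6 had 3599 in GAS2DN cells and 3476 in Venus cells, a log2 ratio of 0.05, and UTP20 had 1763 in GAS2DN cells and 1524 in Venus cells, a log2 ratio of 0.21. NOP14, a scaffold protein of the processome, had 2803 in GAS2DN cells and 2354 in Venus cells, a log2 ratio of 0.25. DDX10, an RNA helicase, had 4298 in GAS2DN cells and 3687 in Venus cells, a log2 ratio of 0.22, and its other probe set, with 27.7 in GAS2DN cells and 2.38 in Venus cells, was below both medians. The brighter probe sets of these 5 genes were all a little above 0. Each was nearer to 0 than the SD between probe sets of 1 gene in its bin. With the median of all log2 ratios set to 0, UTP18 was at -0.03 and UTP6 at -0.07, while UTP20, NOP14 and DDX10 stayed above 0. IMP3 and IMP4, which join U3 to the precursor, were at -0.10 and -0.22, with 3255 against 3477 for IMP3 and 2547 against 2958 for IMP4 in GAS2DN against Venus cells.

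The enzymes and late factors of this subunit were mostly level. NAT10, which acetylates small-subunit RNA, had 1675 in GAS2DN cells and 1698 in Venus cells, a log2 ratio of -0.02. NOB1, the endonuclease that makes the final cut, had 1817 in GAS2DN cells and 1815 in Venus cells, a log2 ratio of 0.00. BYSL, bystin, had 2098 in GAS2DN cells and 2140 in Venus cells, a log2 ratio of -0.03. RRP12, a factor of late maturation and export, was the lowest of the set with 736 in GAS2DN cells and 1088 in Venus cells, a log2 ratio of -0.56. The 4 other probe sets of RRP12 were dim, with signals of 86.3 or less, and their log2 ratios of 0.10, 0.53, -0.59 and 0.79 had no common sign. Of 45 other small-subunit genes 20 were above 0 with a median of -0.06, and none was over 2-fold.

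Of 14 large-subunit factors 9 were measured, and BOP1, PPAN, DDX18, GNL3 and EBNA1BP2 had no value. Of the 9 genes 8 were below 0, with a median of -0.13, and 7 of 9 after loess or quantile normalization, with medians of -0.15 and -0.10. In bins 9 and 10 together, 3034 of 6513 genes were below 0. Apart from NIP7, each main log2 ratio was nearer to 0 than the spread of 0.25 between probe sets of 1 gene in bin 10. NIP7, a factor needed for large-subunit precursor processing in yeast, was the lowest of all 42 genes and lower in both of its probe sets. The brighter, 219031_s_at, had 2132 in GAS2DN cells and 3639 in Venus cells, a log2 ratio of -0.77. The other, 223397_s_at, had 545 in GAS2DN cells and 1551 in Venus cells, a ratio of 0.351 and a log2 ratio of -1.51. Among all probe sets of their own bins these lay at percentiles 1.54 and 0.439, and after loess the log2 ratios were -0.76 and -1.49.

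MRTO4, a relative of the stalk protein P0 that takes part in large-subunit assembly, was also lower in both probe sets, with 4369 against 5073 and 667 against 952 in GAS2DN against Venus cells, log2 ratios of -0.22 and -0.51. PES1 and WDR12 form a complex with BOP1. PES1 had 1005 in GAS2DN cells and 916 in Venus cells, a log2 ratio of 0.13, and was the only one of the 9 above 0. Its second probe set, 236434_at, had 81.6 in GAS2DN cells and 7.09 in Venus cells, a log2 ratio of 3.52, or 0.55 once the Venus signal was raised to the array median. WDR12 had 6833 in GAS2DN cells and 6931 in Venus cells, a log2 ratio of -0.02. The other probe sets of WDR12 had 490 against 826 and 209 against 190.0 in GAS2DN against Venus cells, log2 ratios of -0.75 and 0.14, on both sides of 0.

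The remaining 5 lay within 0.16 of 0 on the log2 scale. RRP1B, the relative of a yeast large-subunit factor, had 11487 in GAS2DN cells and 12745 in Venus cells, a log2 ratio of -0.15, and 374 in GAS2DN cells and 314 in Venus cells in its dimmer probe set, a log2 ratio of 0.25. NOP16, a nucleolar protein, had 5878 in GAS2DN cells and 6435 in Venus cells, a log2 ratio of -0.13, and in its next probe set 4491 in GAS2DN cells and 4541 in Venus cells, a log2 ratio of -0.02. Dimmer probe sets of NOP16 had 0.13 and, below the median on both arrays, -2.21. RRS1, which brings the ribonucleoprotein of 5S RNA into the precursor, had 5330 in GAS2DN cells and 5523 in Venus cells, a log2 ratio of -0.05. NOP2, a methyltransferase of large-subunit RNA, had 1961 in GAS2DN cells and 1971 in Venus cells, a log2 ratio of -0.01. DDX56, an RNA helicase, had 1100.5 in GAS2DN cells and 1233 in Venus cells, a log2 ratio of -0.16, and 0.73 in its other probe set, whose signals were 149 and 89.3.

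Among 47 other measured large-subunit genes 32 were below 0, the median was -0.10 (-0.09 after loess, -0.07 after quantile normalization), and none was over 2-fold. The lowest were the assembly factors BRIX1 with 890 in GAS2DN cells and 1756 in Venus cells, a log2 ratio of -0.98, and PAK1IP1 with 862 in GAS2DN cells and 1664 in Venus cells, a log2 ratio of -0.95. RRP15 was lower in both probe sets, with log2 ratios of -0.69 and -0.95. The highest was MDN1 with 2502 in GAS2DN cells and 1724 in Venus cells, a log2 ratio of 0.54, and 0.02 in its next probe set. These genes were picked after their values were seen.

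Of the 4 abundant nucleolar proteins that act at several steps, 3 were below 0. NCL, nucleolin, had 19889 in GAS2DN cells and 25478 in Venus cells, a log2 ratio of -0.36, and its dim probe set had 99.4 in GAS2DN cells and 111 in Venus cells, a log2 ratio of -0.16. DDX21, a helicase that joins RNA polymerase I transcription with RNA processing, had 17674 in GAS2DN cells and 19159 in Venus cells, a log2 ratio of -0.12, and 12138 in GAS2DN cells and 14258 in Venus cells in the other, a log2 ratio of -0.23. LYAR, a nucleolar growth regulator, had 4645 in GAS2DN cells and 4889 in Venus cells, a log2 ratio of -0.07, and 2366 in GAS2DN cells and 2607 in Venus cells in the other, a log2 ratio of -0.14. In each of these genes both probe sets were lower in GAS2DN cells.

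NPM1, nucleophosmin, was the exception. It had 44016 in GAS2DN cells and 35373 in Venus cells in its main probe set, a log2 ratio of 0.32, which was 0.16 after loess and 0.05 after quantile normalization. Its probe set ending in _x_at had 34129 in GAS2DN cells and 29383 in Venus cells, a log2 ratio of 0.22, or -0.02 after quantile normalization, and 221923_s_at had 15289 in GAS2DN cells and 18850 in Venus cells, a log2 ratio of -0.30. The direction for NPM1 therefore depended on the probe set.

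**Figure D2:**
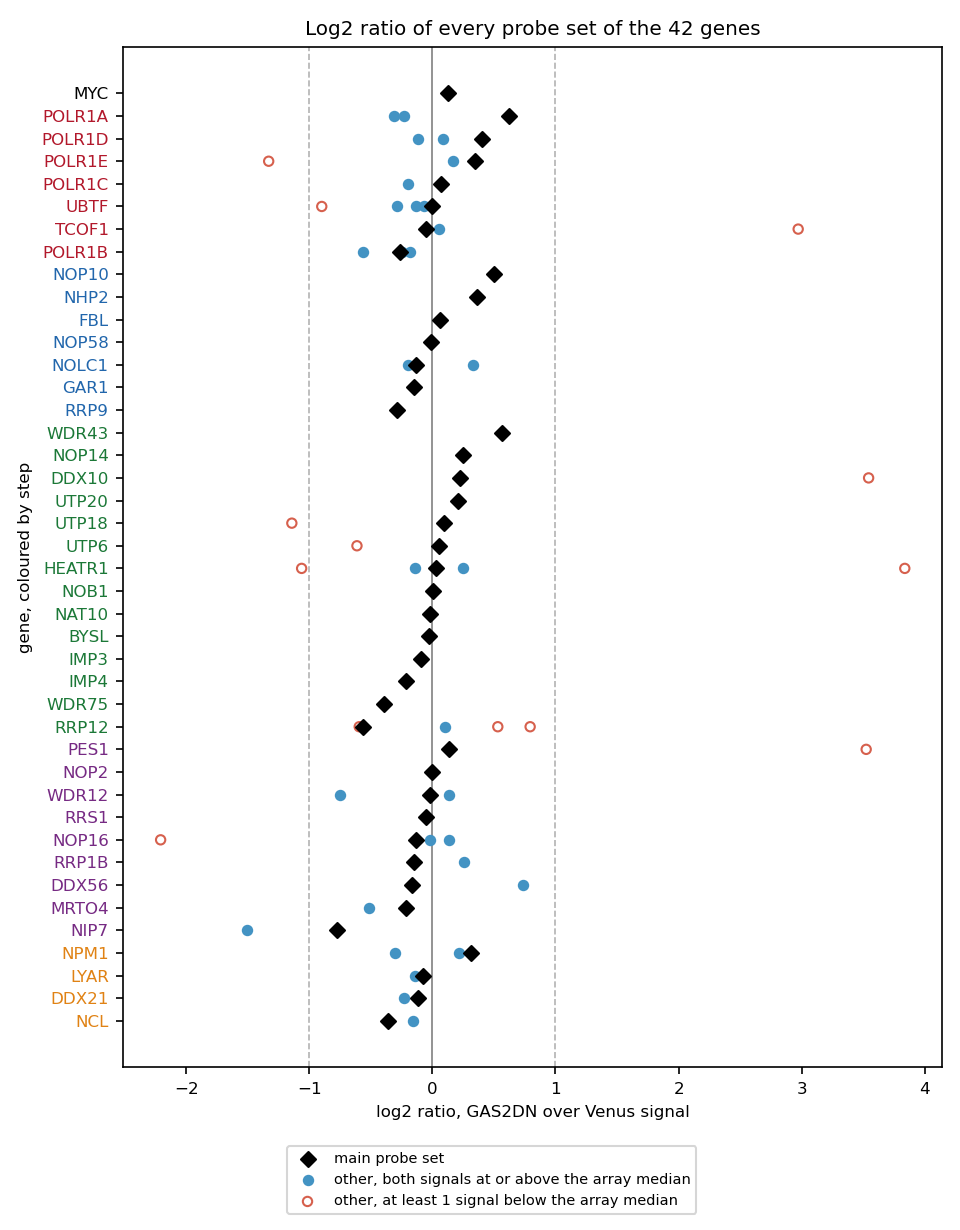
Log2 ratio, GAS2DN over Venus, for each of the 86 probe sets of the 42 genes, with main probe sets as diamonds, other probe sets that reached the array median on both arrays as filled circles and the rest as open circles; dashed lines mark 2-fold. Apart from 223397_s_at of NIP7, at -1.51, every point beyond 2-fold is an open circle.

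Across probe sets, 1 of the 42 genes, PES1, had an eligible probe set over 2-fold higher in GAS2DN cells, against 14.7% of all 13342 genes with an eligible probe set, and 4 genes (NIP7, POLR1E, UTP18 and HEATR1) had one over 2-fold lower, against 10.8%. At the 3-fold limit that the study used, 1 gene was higher (PES1) and 0 were lower, against 8.69% and 6.09% of all genes. Of the 5 eligible probe sets over 2-fold, 4 had 1 signal below the array median. Among the 73 probe sets that reached the median on both arrays, the only one over 2-fold was that of NIP7. A further 4 probe sets, of TCOF1, DDX10, HEATR1 and NOP16, were over 2-fold but not eligible. In 20 genes with 2 or more probe sets above the median on both arrays, all probe sets were lower in 7 (NIP7, POLR1B, MRTO4, NCL, DDX21, LYAR and UBTF, of which UBTF was level to 2 decimals in its main probe set, with 0.02 after loess), all were higher in 1 (POLR1E), and 12 had probe sets on both sides of 0. The same counts were not made over all genes, so these numbers cannot be read as a trait of the 42. Both probe sets of LYAR and of DDX21 were nearer to 0 than the SD of 0.25 in bin 10. The median distance between the highest and lowest log2 ratio of 1 gene was 0.39 and the widest was 0.93, in POLR1A.

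**Figure D3:**
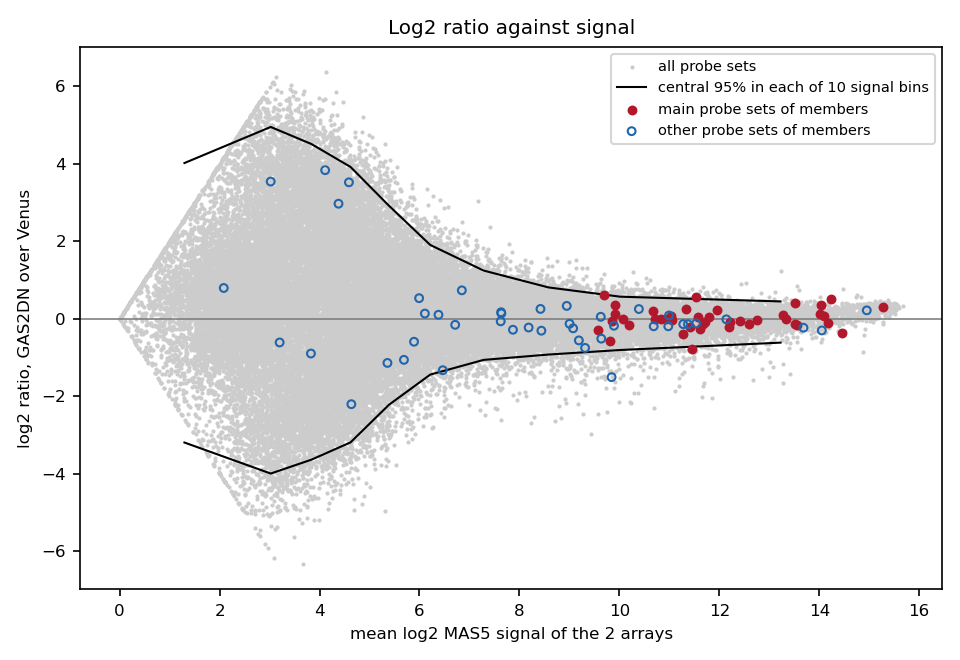
Log2 ratio, GAS2DN over Venus, against the mean log2 signal of the 2 arrays for all probe sets (grey), with the central 95% in 10 bins of signal (lines) and the probe sets of the 42 genes (main filled, other open). The main probe sets sit at the bright end, where the SD between probe sets of 1 gene was 0.25 to 0.34, and the open circles at 2.97 and above lie in the dim part.

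Set beside other lists, the ribosome factors outside the 42 numbered 117 measured genes, of which 44 were above 0 and 73 below, with a median of -0.08 that was -0.09 after loess and -0.06 after quantile normalization. Transcripts for the proteins of the ribosome itself lay on the other side on the deposited scale. Of 79 listed cytosolic ribosomal protein genes 53 were measured, and 48 of these were above 0 with a median of 0.24. After loess 43 were above 0 with a median of 0.12, and after quantile normalization only 27 with a median of 0.01. These lists are described side by side, and the difference between them was not tested.

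**Figure D4:**
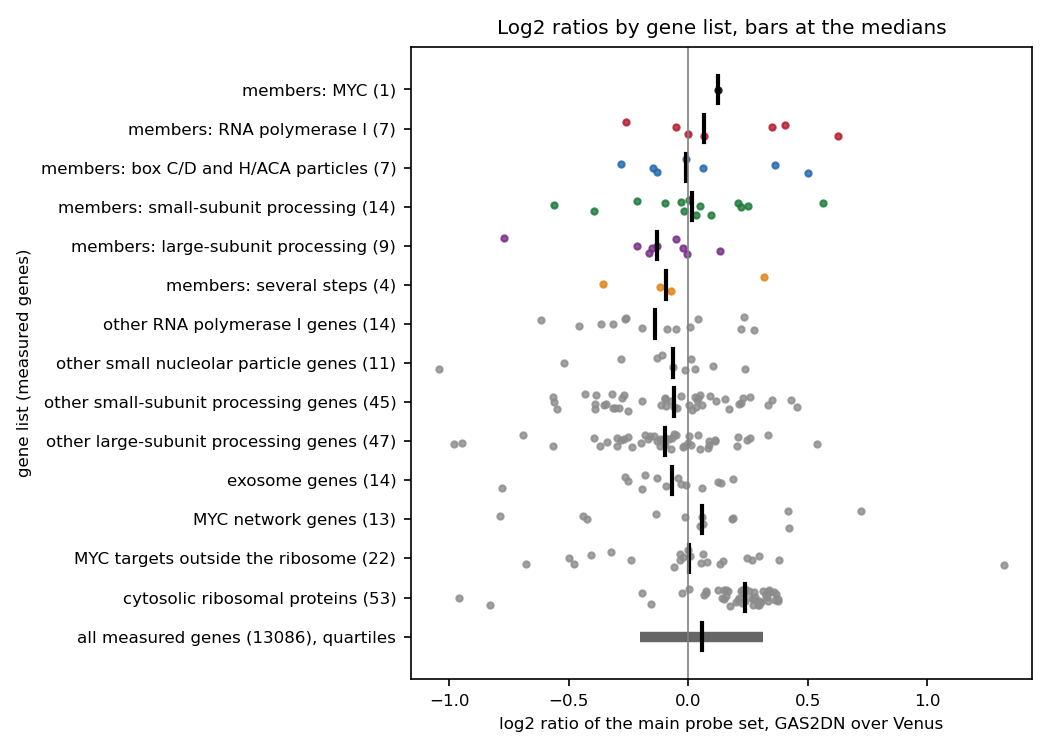
Log2 ratio of the main probe set for measured genes (points) and their median (bars) in the 6 groups of the 42 genes, in other lists of the pathway, the exosome and the MYC network, in MYC targets outside the ribosome and in cytosolic ribosomal proteins, with the quartiles of all 13086 measured genes in the bottom row. Large-subunit factors have their median at -0.13, ribosomal proteins at 0.24 and all measured genes at 0.06.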

How the data were processed

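The authors deposited 1 value per probe set and array, the log2 of a MAS5 signal (version not given in the sources used here), and pooled RNA of 3 extracts per condition before hybridisation. Converted to linear signals, the arrays had 2% trimmed means of 500.1 each, so both had been scaled to a common level. No detection calls are part of the table. Of 54675 probe sets, 62 controls were left out, the 1801 annotated to several genes and the 11721 without a gene were set aside as well, which left the 41091 annotated to 1 gene. Symbols came from the platform annotation, with 41037 updated through the gene ID and 54 kept.

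The 48 genes, their groups and the other lists were chosen with earlier results of these data known. All genes with a probe set of their own are named, with full values for MYC, for genes with an eligible probe set over 2-fold and for the 3 brightest of each group. Of each list of other pathway genes, the 2 highest and 2 lowest main probe sets over 2-fold were named. Other genes of these lists were named after their values were seen. With 1 array per condition no test could be made, precision is limited by the number of arrays, and counts, medians and the spread between probe sets of 1 gene in 10 bins of signal are given. As alternatives, another filter on dim probe sets or none, another scaling (centred on the median, loess at span 0.2 with 3 iterations, or quantile normalization), other probe sets of a gene and other treatments of low signals were tried. The steps were tested on simulated data. The tools were pandas 2.3.3 and numpy 2.4.6 in Python 3.11.15, with statsmodels 0.14.6 for loess, scipy 1.17.1 and, for plots, matplotlib 3.10.9.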

Additional observations from a re-analysis of the deposited data

How the results depend on the processing

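The median log2 ratio of the 42 genes, -0.01, was below 0 under all 10 alternatives, and was closest to 0 after quantile normalization, at -0.005. The other filters on dim probe sets and the raising of low signals could not change it, because all 42 main probe sets were above the median on both arrays. It moved furthest with the median of all log2 ratios set to 0, to -0.13, and with the second brightest eligible probe set of each gene, to -0.15 over 22 genes. The first of these moved all genes alike, and the median of the 42 minus that of all genes stayed at -0.07. With the second brightest probe set the median over all genes was 0.01, and the difference was -0.16. The count of genes with an eligible probe set over 2-fold higher, 1, was 4 with no filter on dim probe sets, 0 when both signals had to reach the array median and 0 with low signals raised to that median. The count over 2-fold lower, 4, was 1 when both had to reach it, 1 after the median was added to every signal, 2 with low signals raised and 2 when _s_at and _x_at probe sets were left out. NIP7 was lost from it only without those probe sets, both of its own being of that kind. With low signals raised, 222038_s_at of UTP18 turned to 0.18, because the raised level is higher on the GAS2DN array. Of the 42 main probe sets 6 changed sign with the median set to 0, 3 after loess and 4 after quantile normalization, the largest of them with a log2 ratio of 0.10 before the change. No paired analysis was possible because each condition has 1 array. Of the probe sets of the 42 genes past 2-fold, all except 223397_s_at of NIP7 had at least 1 signal below the array median.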

Other observations

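Known MYC targets outside the ribosome, 22 measured genes, had 11 above 0 and a median of 0.00. After loess 9 were above 0 with a median of -0.07, after quantile normalization 8, and with the median of all log2 ratios set to 0, 7. Of all 13086 measured genes, 7028, 7162 and 5521 were above 0 under the same scalings, in that order. ODC1, the first enzyme of polyamine synthesis, had 20542 in GAS2DN cells and 21419 in Venus cells, a log2 ratio of -0.06. CAD, which starts pyrimidine synthesis, had 1524 in GAS2DN cells and 2439 in Venus cells, a log2 ratio of -0.68, and -0.19 in its other probe set. The only one over 2-fold was TERT, the catalytic subunit of telomerase, with 193 in GAS2DN cells and 77.4 in Venus cells, a log2 ratio of 1.32, and 87.0 in GAS2DN cells and 25.3 in Venus cells, the Venus signal below the array median, in its other probe set.

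A list of the exosome, the nuclease complex that trims ribosomal precursors from the 3′ end, with its cofactors and the separate exonuclease XRN2, had 4 of 14 genes above 0, XRN2 among them, and a median of -0.07. EXOSC9, a core subunit, was the lowest with 1897 in GAS2DN cells and 3252 in Venus cells, a log2 ratio of -0.78, in its 1 probe set. The highest was EXOSC8 with 12517 in GAS2DN cells and 10988 in Venus cells, a log2 ratio of 0.19, in its 1 probe set. CAD, ODC1, EXOSC8 and EXOSC9 were picked after their values were seen.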
